A study of Rattus norvegicus with 12 samples.

Results

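Rats of 1 line that had drunk the same compound were compared by whether they were labelled as having responded to it. All of them came from the Flinders Sensitive Line (FSL), which is used as a rat model of depression-like behaviour, and the compound was L-acetyl-carnitine (LAC). The comparison took every library labelled LAC responder (3 libraries) and every one labelled LAC non-responder (3 libraries), which is 6 of the 12 libraries of the series. The other 6 libraries, 3 from FSL rats and 3 from rats of the Flinders Resistant Line (FRL), both on vehicle, gave the untreated background. All animals were males labelled as Sprague-Dawley, the stock from which these lines were bred. LAC was dissolved in the drinking water at 0.3% w/v for 7 days, which the labels put at about 210 mg/kg per day. Total RNA of the ventral dentate gyrus was depleted of ribosomal RNA and sequenced. In the sources used here neither the test that separated responders from non-responders nor the number of animals behind 1 library is given. The libraries of a group are described as biological replicates, and p-values measure only the spread between these libraries.

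The ventral dentate gyrus is the part of the hippocampus most tied to stress and mood, and it is built mainly of granule neurons, with mossy cells and interneurons in the hilus next to them. Carnitine carries long-chain fatty acids into mitochondria, and its acetylated form can hand its acetyl group to coenzyme A through carnitine acetyltransferase (Crat), so that it touches both energy metabolism and the acetylation of histones. LAC is known in FSL rats for a fast antidepressant-like action that has been tied to the metabotropic glutamate receptor mGlu2 (Grm2). Because both groups had drunk LAC, a difference between them cannot be read as the effect of the compound against vehicle.

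Counts in genes came to 7.55 to 8.14 M per responder library (M for mega) and 7.07 to 7.72 M per non-responder library, and between 13205 and 13493 genes had at least 1 count in each. A count of 3, taken as the detection floor, corresponded to 0.368 to 0.424 counts per M counts (CPM) in the 6 libraries and covers counting error only. The dentate label held in 5 of them: Prox1, the transcription factor that defines granule neurons, stood at 79.1 to 118 CPM, and C1ql2, a secreted granule-neuron protein, at 42.5 to 55.6 CPM. In responder 1 they stood at 9.19 and 3.31 CPM, while the thalamic marker Tcf7l2 stood at 156 CPM against 7.68 to 18.4 CPM in the other 5. Non-responder 1 held Ttr, the choroid plexus transport protein transthyretin, at 5388 CPM against 7.06 to 40.1 CPM in the other 5. In tissue RNA, fewer cells of a type and less RNA per cell cannot be told apart.

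No gene differed between responders and non-responders after correction for multiple testing. Of 11750 genes tested with edgeR's quasi-likelihood test and Benjamini-Hochberg adjustment, 0 passed an adjusted p of 0.05 (0%), and the smallest adjusted p was 0.992. DESeq2 and limma-voom also called 0. At an unadjusted p under 0.05 there were 369 genes (3.14%), 139 of them at a higher level in responders (1.18%) and 230 at a lower level (1.96%). All 3 responder libraries lay above all 3 non-responder libraries for 677 genes (5.76%) and below them for 651 (5.54%), together 1328 genes (11.3%). The difference was positive for 50.3% of genes, with a median of 0.00097 on the log2 scale.

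In each group 1 pair of libraries was closer together than any pair across the groups, and 1 library stood apart. The distance of a pair of libraries, taken as the root mean square difference in log2 CPM over all tested genes, was 0.326 for responders 2 and 3 and 0.297 for non-responders 2 and 3. It was 0.531 and 0.560 from responder 1 to the other responders, and 0.519 and 0.492 from non-responder 1 to the other non-responders. The 9 pairs across groups ran from 0.422 to 0.589 with a median of 0.477. So each group consisted of 1 close pair and 1 library as far from its own group as from the other. The first principal component, 34.1% of the variance of the 6 libraries, set responder 1 apart at -33.6 and put non-responder 1 (20.7) beside responder 3 (19.6). On the second component, 26.7% of the variance, responders stood at -24.8, -5.13 and -8.26 and non-responders at -7.46, 22.0 and 23.7.

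**Figure D1:**
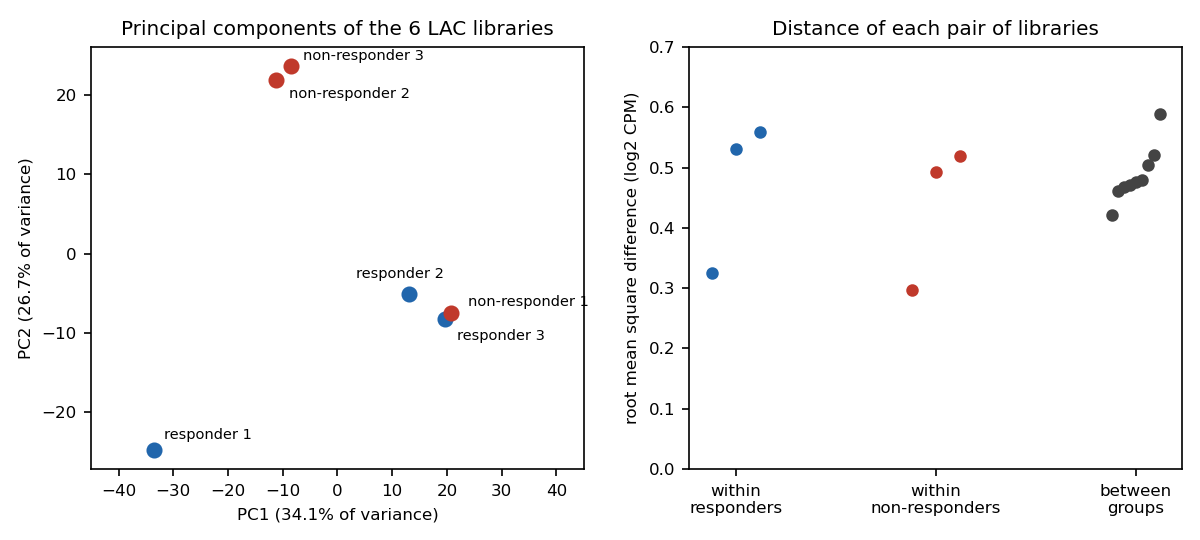
Left, the first and second principal components of the log2 CPM of the 6 LAC libraries, 1 point per library. Right, root mean square difference in log2 CPM for each pair of libraries within responders (3 pairs), within non-responders (3 pairs) and between the groups (9 pairs); the between-group distances of 0.422 to 0.589 cover the same range as the longer distances within each group.

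The spread of these libraries sets how precisely a difference could be measured. The 95% interval of the difference lay within 1.5-fold in either direction for 7655 genes (65.1%) and within 2-fold for 9819 (83.6%). Its half-width had a median of 1.25-fold. Precision followed the level: among the 2605 genes with at least 100 CPM in 1 of the groups 98.0% had an interval within 2-fold, and among the 6653 genes between 10 and 100 CPM 92.3% did. Among the 2449 genes between 1 and 10 CPM only 45.9% did, and a 2-fold difference in such a gene was often not detectable.

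The genes named here are the 12 of smallest p in each direction with a mean of at least 1 CPM in either group. None of the 24 passed the adjusted threshold in edgeR's quasi-likelihood test (adjusted p = 0.992 for each), so their values describe these libraries. Among the 12 at a higher level in responders, 3 are receptors: the prostaglandin E2 receptor Ptger3, the orphan receptor Gpr101 and the receptor tyrosine kinase Ros1. The others include enzymes that deal with oxidised molecules (Gsto1, a glutathione transferase, and Nudt1, which clears oxidised nucleotides) and the mitochondrial ribosome protein Mrps33.

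Ptger3 stood at 3.19, 2.35 and 1.62 CPM in responders and at 1.19, 1.05 and 0.989 CPM in non-responders. FSL rats on vehicle had 2.43 to 2.71 CPM and FRL rats 2.19 to 2.93 CPM, so that the non-responders were the low group and the responders overlapped both untreated lines. The difference was 1.14 ± 0.31 (log2 fold change ± SE, 95% interval 0.45 to 1.82). Gsto1 stood at 84.2, 73.1 and 87.7 CPM in responders and at 65.5, 62.5 and 63.6 CPM in non-responders, a difference of 0.35 ± 0.10 on the log2 scale. Its untreated levels of 59.4 to 74.7 CPM in FSL and 66.4 to 79.6 CPM in FRL covered the gap between the LAC groups. Nudt1 stood at 1.59, 1.98 and 1.75 CPM against 1.06, 0.791 and 0.707 CPM, a log2 difference of 1.04 ± 0.32. Mrps33 stood at 37.4, 37.1 and 39.5 CPM against 33.8, 29.4 and 28.6 CPM, a log2 difference of 0.31 ± 0.10. The groups did not overlap for either gene. Nudt1 lay close to the detection floor, and it overlaps Mrm2 in the RefSeq annotation, so that its reads may not all be its own. The other members of the 12 (Hdhd2, Lhfpl4, Tram1l1, Brms1l and Cpsf3l, a subunit of the Integrator complex) had log2 differences between 0.27 and 0.37, and Ros1 was the only one of the 12 whose groups overlapped.

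Pmch, which encodes the precursor of melanin-concentrating hormone, a peptide of lateral hypothalamic neurons, had the smallest p. Its 3 responder libraries held 77, 23 and 3 counts and its non-responder libraries 1, 1 and 0. In CPM this was 9.43, 2.85 and 0.405 against 0.132, 0.132 and 0. The ratio of the summed counts was 48.4 with a 95% counting interval (Clopper-Pearson) of 13.1 to 405, which leaves out the spread between libraries. Responder 3 was at the floor, so that the difference rests mainly on responders 1 and 2. FSL vehicle libraries had 0.516 to 2.10 CPM and FRL vehicle libraries 0 to 0.386 CPM. Of 15 hypothalamic markers in the files only 3, Pmch among them, were abundant enough to test. The factors Otp, Hmx2 and Hmx3 were at 0 in all 6 libraries, while other untested markers held reads. Summed over the 15, the level was 33.6, 12.1 and 10.5 CPM in responders and 10.4, 7.65 and 8.76 CPM in non-responders. The other 2 tested markers overlapped between groups: the peptide precursor Pomc stood at 1.84, 2.23 and 2.43 CPM against 2.90, 1.58 and 0.848 CPM, and the transcription factor Lhx9 at 16.4, 1.61 and 5.13 CPM against 4.35, 1.85 and 3.11 CPM. Gpr101, like Pmch, did not overlap between the groups, at 6.86, 1.12 and 1.21 CPM against 0.792, 0.396 and 0.565 CPM. Without responder 1 the log2 difference of Gpr101 went from 2.36 to 0.97 and that of Pmch from 5.32 to 3.96. The part of hypothalamic tissue in these values was not tested.

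Among the 12 genes at a lower level in responders were 4 of matrix or connective tissue: the collagen Col8a1, the proteoglycan decorin (Dcn), chondromodulin (Lect1, now Cnmd) and the secreted protein C1qtnf3. The remaining 8 were the cobalamin carrier Tcn2, the mitochondrial enzyme Clybl, the endosomal SNARE protein Vamp8, the junction protein Cgnl1, the cytoskeletal septin Sept9, the protease inhibitor Serpinb1a, the glycosyltransferase Galnt4 and the class I histocompatibility gene RT1-CE5. Reads of RT1-CE5 are uncertain because it has close copies, and those of Galnt4 because it overlaps Poc1b.

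Clybl stood at 7.96, 8.67 and 7.96 CPM in responders and at 13.5, 13.7 and 13.3 CPM in non-responders. The 3 libraries of each group lay close together, and the log2 difference was -0.72 ± 0.18 (95% interval -1.11 to -0.32). FSL vehicle libraries had 10.2 to 17.8 CPM and FRL vehicle libraries 9.01 to 10.3 CPM. Tcn2, which delivers cobalamin to cells, stood at 23.0, 26.0 and 18.4 CPM in responders and at 31.5, 37.3 and 31.7 CPM in non-responders, a log2 difference of -0.57 ± 0.16. FSL vehicle libraries held 38.1 to 56.6 CPM of Tcn2 and FRL vehicle libraries 24.5 to 27.3 CPM. In both genes every FRL vehicle library lay below every non-responder and every FSL vehicle library above every responder.

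Vamp8 stood at 6.49, 5.33 and 5.80 CPM in responders and at 10.7, 9.89 and 8.90 CPM in non-responders, a log2 difference of -0.74 ± 0.19. Among the 44 SNARE and vesicle genes tested it was the only one at an unadjusted p under 0.05. Cgnl1, a protein of tight and adherens junctions, stood at 38.1, 30.4 and 35.2 CPM in responders and at 127, 59.6 and 66.6 CPM in non-responders. Its log2 difference of -1.29 ± 0.35 became -0.88 without non-responder 1. Dcn stood at 21.6, 29.4 and 24.2 CPM against 46.3, 82.4 and 74.8 CPM, a log2 difference of -1.44 ± 0.40. Sept9 stood at 98.9, 95.7 and 92.3 CPM against 112, 114 and 117 CPM, and its log2 difference of -0.26 ± 0.07 was the smallest of the 12.

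The other matrix genes leaned in part on the library rich in choroid plexus RNA. C1qtnf3 stood at 1.59, 0.744 and 0.810 CPM in responders and at 15.2, 2.64 and 2.97 CPM in non-responders, and its log2 difference of -2.70 ± 0.66 became -1.41 without non-responder 1. Col8a1 stood at 3.31, 0.496 and 1.21 CPM against 39.3, 3.69 and 7.92 CPM, and its log2 difference of -3.32 ± 0.95 became -1.78. Lect1 stood at 0.613, 0.124 and 0.135 CPM against 14.1, 1.58 and 2.40 CPM, and -4.28 ± 1.24 became -2.69. In responders 2 and 3 Lect1 lay below the detection floor. The groups did not overlap for any of these 3 genes. Without responder 1 and non-responder 1 the log2 differences were -1.83 for C1qtnf3, -2.75 for Col8a1 and -3.77 for Lect1. Without responder 1 alone they were -3.13, -4.30 and -5.37.

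**Figure D2:**
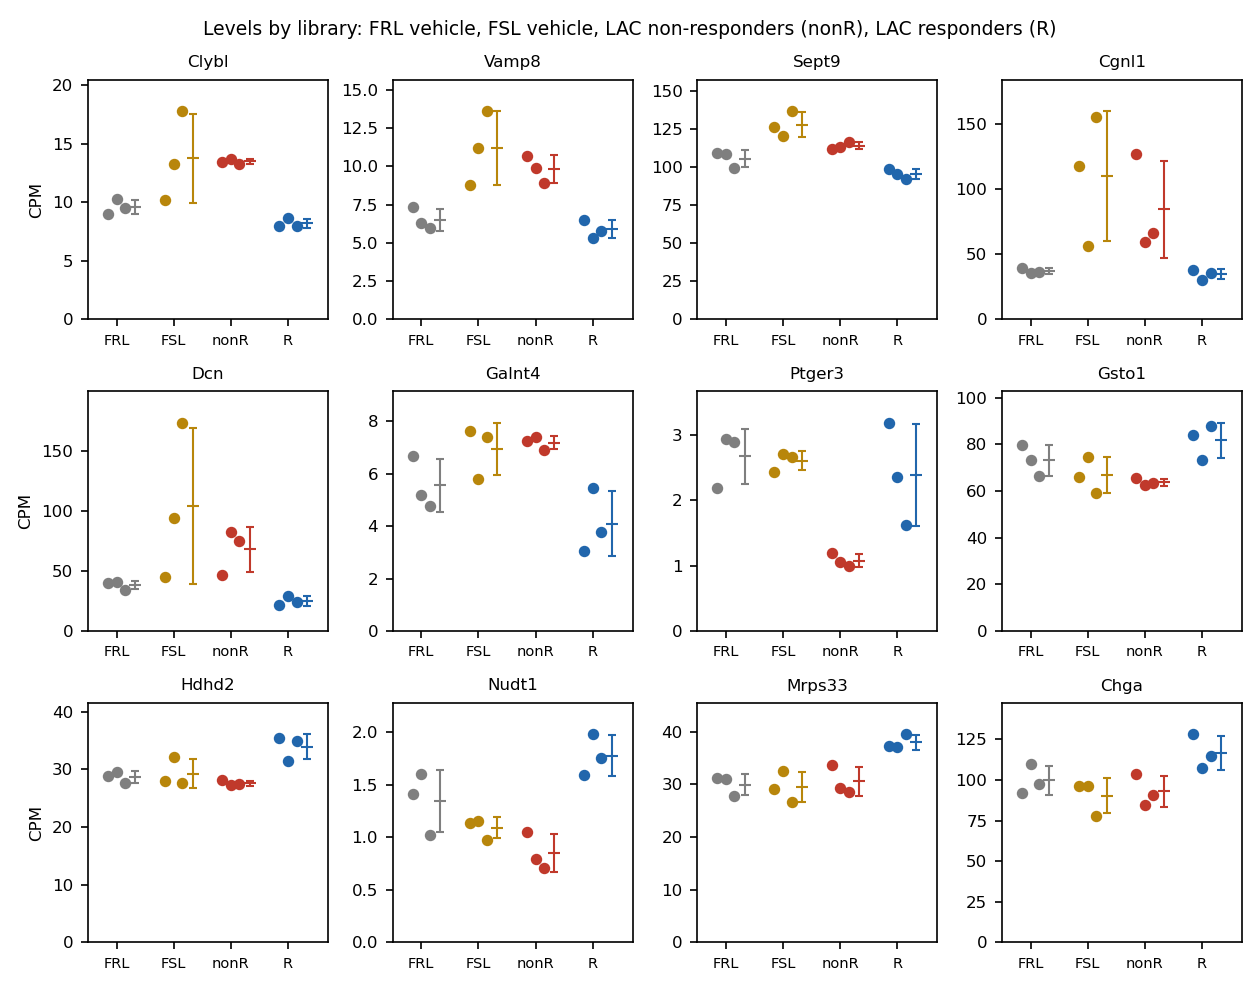
CPM of named genes in every library, 1 panel per gene, with 1 point per library and the mean ± SD of each group of 3; each panel has its own linear axis from 0. For Clybl, Vamp8, Sept9, Cgnl1, Dcn and Galnt4 every FRL vehicle point lies below every non-responder point and every FSL vehicle point above every responder point.

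The untreated lines were not used to choose these genes, apart from a shared estimate of the spread, and their levels were set beside those of the LAC groups. Over all 11750 genes, the FSL minus FRL difference had the opposite sign to the responder minus non-responder difference in 64.2%. In all 12 of the lower genes every FRL vehicle library lay below every non-responder, and every FSL vehicle library lay above every responder. In 206 of the 230 genes lower in responders at an unadjusted p under 0.05 (89.6%) the FSL vehicle mean exceeded the FRL vehicle mean. The FSL mean was the higher one for 48.4% of all genes. In 96 of the 139 genes at a higher level in responders (69.1%) the FSL mean was below the FRL mean. The FSL mean was the lower one for 51.6% of all genes. Both shares also stand beside the 64.2% of opposite signs over all genes, to which the 69.1% was close. The complete separation seen in the 12 lower genes held for 83 of the 230 (36.1%), and its mirror image, in which the untreated lines trade places, for 2 (0.870%). Among the 139 higher genes the counts were 11 (7.91%) and 7 (5.04%). Of the 651 genes with all responders below all non-responders, 123 (18.9%) had the complete separation and 6 (0.922%) its mirror image. Of the 677 with all responders above, 47 (6.94%) had the separation and 11 (1.62%) its mirror image. Genes chosen for a wide gap between the LAC groups meet this rule more easily, and its share over all 11750 genes was not counted.

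Without responder 1 and non-responder 1 the signs were opposite in 66.4% of all genes. The FSL vehicle mean then exceeded the FRL vehicle mean in 222 of 237 lower genes (93.7%), next to 50.4% of all genes. It lay below the FRL vehicle mean in 56 of 79 higher genes (70.9%), next to 49.6% of all genes. The 70.9% was again close to the share of opposite signs over all genes. Markers of the meninges and fibroblasts followed the same order of groups in part. Their mean level was 4.29, 2.63 and 2.78 log2 CPM in responders, 3.58, 5.32 and 5.26 in non-responders, 3.52, 5.70 and 7.30 in FSL vehicle and 3.61, 4.27 and 3.13 in FRL vehicle. With their mean as a covariate the counts were 240 of 256 lower genes (93.8%) and 238 of 310 higher genes (76.8%). Signs were then opposite in 63.1% of all genes. With the choroid plexus markers as a covariate the counts were 239 of 246 (97.2%) and 100 of 121 (82.6%), next to 68.3%. In both covariate fits the share of the higher genes lay farther above that of opposite signs. Both differences in each of these fits are adjusted with 1 shared slope. Only 3 libraries stand behind each line, and genes are not independent replicates.

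Of the 36 gene lists, markers of choroid plexus and meninges had the medians farthest from 0. All 21 choroid plexus genes tested were at a lower level in responders, with a median log2 difference of -4.38, and 16 of them had an unadjusted p under 0.05. Their mean level was 6.64 log2 CPM in non-responder 1 and 1.27 to 2.65 in the other 5 libraries, and without non-responder 1 the median went to -0.46. The choroid plexus factor Otx2 was at 0 in every library, non-responder 1 included. Whether its symbol could collect reads here was not tested. All 17 meningeal and fibroblast genes tested were also at a lower level in responders, with a median of -1.44. Igf2, a growth factor made by the meninges, stood at 82.2, 29.9 and 32.7 CPM against 242, 227 and 256 CPM. The levels of Dcn, the other secreted member named here, are given above. Without the 2 libraries that stood apart the meningeal median went to -2.92. The collagen gene Col1a2 was at 0 in every library, and for its symbol too this was not tested.

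Other non-neuronal markers showed smaller medians. Of 20 endothelial and pericyte genes, 18 were at a lower level in responders with a median of -0.31. It was 0.04 with the meningeal markers as a covariate and -0.46 with the choroid plexus markers as a covariate. Without responder 1 and non-responder 1 it was -0.47. The part of meningeal tissue in this was not tested. The contractile genes of vessel walls differed most: Myh11 stood at 30.3, 24.3 and 32.4 CPM in responders and at 31.8, 118 and 123 CPM in non-responders. Of 17 microglial genes, 10 were at a lower level, with a median of -0.11 (-0.23 without these 2 libraries), and the 13 astrocyte genes had a median of 0.04. All 16 oligodendrocyte genes were at a lower level in responders with a median of -0.15. Their mean level was highest in responder 2 (7.66 log2 CPM) and non-responder 2 (7.75) and lay between 6.84 and 7.22 in the other 4 libraries, and without responder 1 their median was 0.03.

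Granule neurons are the main neurons of the tissue sampled. The 13 granule neuron genes had a median of 0.01, with 7 at a higher and 6 at a lower level in responders. Without responder 1 and non-responder 1 the median was 0.15, with 11 at a higher level, and with the meningeal markers as a covariate it was -0.18. C1ql3, a synaptic organiser of granule neurons, was the only one whose groups did not overlap, at 93.2, 102 and 104 CPM in responders and 76.0, 69.6 and 76.7 CPM in non-responders. Its log2 difference was 0.43 ± 0.22. Thalamic and midbrain genes had a median of -0.25 and wide limits, from -0.94 to 2.26. Their positive end came from responder 1: Tcf7l2 had a log2 difference of 2.26 ± 0.98 with that library and -0.60 without it. Slc17a6, a vesicular glutamate transporter of subcortical neurons, stood at 274, 62.2 and 54.5 CPM in responders and at 35.2, 56.3 and 63.3 CPM in non-responders, and its difference of 1.34 ± 0.59 became 0.18 without responder 1. All 9 CA1 and subiculum genes were at a lower level in responders (median -0.18), and without responder 1 and non-responder 1 the median was -0.04.

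**Figure D3:**
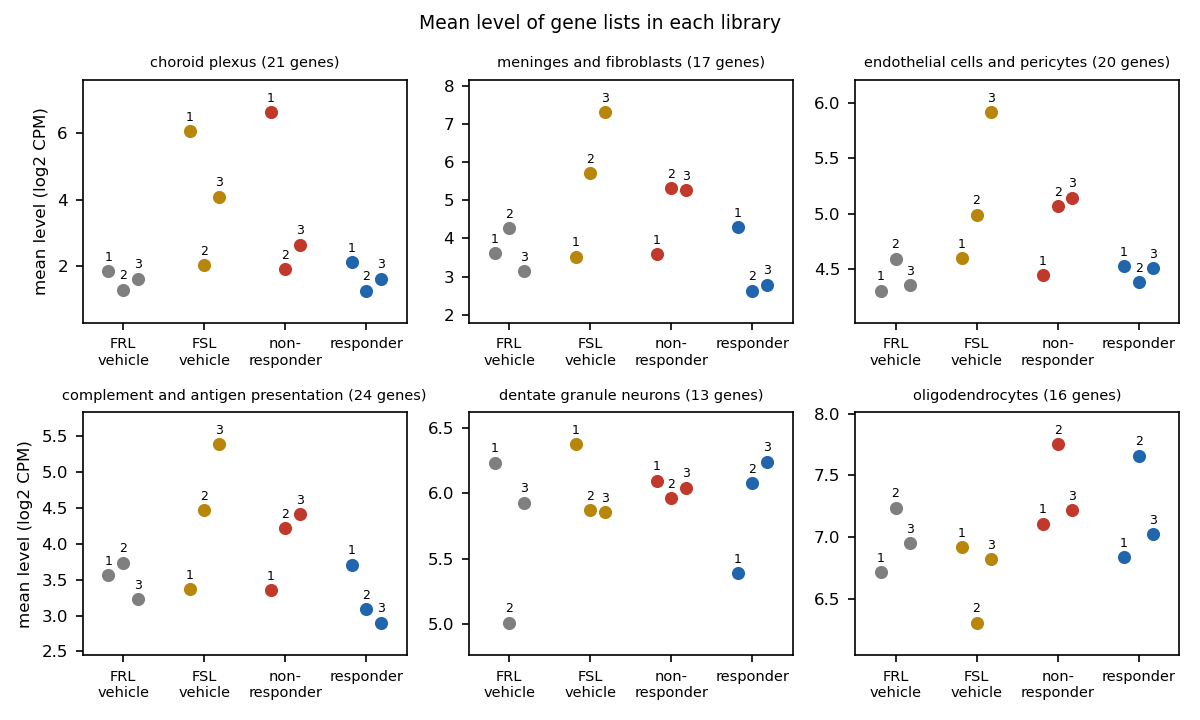
Mean log2 CPM of 5 cell-type marker lists and of the complement and antigen presentation list in each of the 12 libraries, 1 point per library with its replicate number, by group. Among the 6 LAC libraries choroid plexus markers are highest in non-responder 1 (6.64 log2 CPM), meningeal markers in non-responders 2 and 3 (5.32 and 5.26), and granule neuron markers are lowest in responder 1 (5.39).

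Pathway genes were called at rates close to those of all genes. The 18 pathway lists held 661 distinct genes, of which 590 were tested. Of these 590, 0 passed the adjusted threshold and 19 had an unadjusted p under 0.05 (7 at a higher and 12 at a lower level in responders). That is 3.22%, next to 3.14% of all genes. The groups did not overlap for 61 genes (10.3%), next to 11.3% of all genes, and the 95% interval lay within 2-fold for 479 (81.2%), next to 83.6%.

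Carnitine itself is handled by transporters, acyltransferases and the enzymes that make it. Of 11 such genes tested, 1 had an unadjusted p under 0.05: Slc22a4, an organic cation transporter that can carry carnitine, at 3.43, 1.98 and 2.43 CPM in responders and 5.15, 4.22 and 4.38 CPM in non-responders, a log2 difference of -0.80 ± 0.32. Slc25a20, which exchanges carnitine and acylcarnitines across the inner mitochondrial membrane, overlapped between groups, at 32.3, 29.9 and 35.2 CPM against 32.9, 28.2 and 27.7 CPM. Crat, which moves acetyl groups between carnitine and coenzyme A, stood at 124, 123 and 130 CPM against 129, 119 and 126 CPM. Its difference of 0.01 ± 0.09 had an interval of -0.18 to 0.21, narrower than 1.5-fold either way. Cpt1a, which makes long-chain acylcarnitines at the outer mitochondrial membrane, stood at 56.7, 55.4 and 58.6 CPM against 64.4, 64.0 and 59.2 CPM. These groups did not overlap, but the difference of -0.14 ± 0.09 had an interval that included 0.

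Downstream enzymes of fuel use differed by small amounts. In fatty acid oxidation 1 of 32 genes had an unadjusted p under 0.05, Acadvl, which opens the oxidation of very long chains, at 55.7, 57.9 and 54.0 CPM in responders and 64.9, 70.5 and 61.8 CPM in non-responders (log2 difference -0.23 ± 0.08). In glycolysis and the citrate cycle it was 1 of 35, the mitochondrial isocitrate dehydrogenase Idh2, at 60.9, 64.3 and 60.7 CPM against 82.6, 72.0 and 70.7 CPM (-0.28 ± 0.10). Subunits of the respiratory chain and ATP synthase leaned the other way: 55 of 61 had a positive difference, against 50.3% of all genes. Their median was 0.08, the range -0.03 to 0.16, and 0 of 61 had an unadjusted p under 0.05. The largest was Cox6a1, a subunit of cytochrome c oxidase, at 272, 253 and 255 CPM against 238, 236 and 222 CPM. All 61 intervals lay within 1.5-fold. Without responder 1 and non-responder 1, 59 of 61 were positive with a median of 0.12. The median was 0.035 without non-responder 3 and 0.020 with the meningeal markers as a covariate.

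Receptors and transmitters were next. Grm2 stood at 42.1, 97.4 and 77.3 CPM in responders and at 88.4, 82.7 and 74.2 CPM in non-responders. Responder 1, the library poor in granule neuron markers, was the low one, and the interval of the difference was -0.72 to 0.36. Of 35 glutamate genes the only one at an unadjusted p under 0.05 was Slc17a6, given above. Of 21 GABA genes 18 had a positive difference (median 0.13, or 0.07 without responder 1 and non-responder 1) and 0 reached that threshold. Among 35 monoamine and acetylcholine receptor genes 2 did: the serotonin receptor Htr2a, at 20.2, 8.92 and 9.18 CPM against 8.71, 5.27 and 6.36 CPM (log2 difference 0.91 ± 0.38), and the muscarinic receptor Chrm2, at 42.1, 18.8 and 19.2 CPM against 10.4, 19.9 and 16.4 CPM (0.78 ± 0.34). Responder 1 was the highest library for both. Without it the differences were 0.42 for Htr2a and 0.29 for Chrm2, and without responder 1 and non-responder 1 they were 0.64 and 0.065.

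Of 22 neuropeptide and granin genes tested, 16 had a positive difference, with a median of 0.22. Beside Pmch, Chga, the granule protein chromogranin A, had an unadjusted p under 0.05, at 128, 108 and 115 CPM in responders and 104, 84.7 and 90.5 CPM in non-responders (0.33 ± 0.11). Vip, an interneuron peptide, did not overlap between groups either, at 37.6, 30.2 and 27.8 CPM against 19.9, 27.0 and 21.1 CPM, with an interval of -0.18 to 1.17. Without responder 1 and non-responder 1 the median of the list was 0.10.

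Of 19 genes of the stress hormone axis tested, 0 had an unadjusted p under 0.05 and the median was -0.02. The glucocorticoid receptor Nr3c1 stood at 218, 270 and 225 CPM in responders and at 232, 300 and 250 CPM in non-responders, with an interval of -0.39 to 0.12. The mineralocorticoid receptor Nr3c2 ranged over 99.2, 166 and 238 CPM against 209, 154 and 191 CPM, and its interval of -0.88 to 0.61 was wide. Sgk1, a kinase induced by glucocorticoids, stood at 223, 320 and 214 CPM against 298, 274 and 309 CPM. FSL vehicle libraries had 174 to 191 CPM of Sgk1, below all 6 LAC libraries, and FRL vehicle libraries 199 to 237 CPM. The receptor chaperone Fkbp5 overlapped as well, at 51.3, 52.2 and 68.6 CPM against 50.4, 61.5 and 81.4 CPM.

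Of 40 insulin and IGF genes tested, 2 had an unadjusted p under 0.05, Igf2 and its binding protein Igfbp2. Igfbp2 stood at 29.0, 7.68 and 13.1 CPM in responders and 129, 58.5 and 57.4 CPM in non-responders, a log2 difference of -2.29 ± 0.74. Igf2 stands in the meningeal marker list too. Igfbp2 was highest in non-responder 1, where meningeal markers were lowest among the non-responders and choroid plexus markers were highest. Without non-responder 1 the log2 difference was -1.81 for Igfbp2 and -2.33 for Igf2. The part of either tissue in these values was not tested. The insulin receptor Insr stood at 92.0, 80.8 and 83.0 CPM against 88.5, 89.4 and 99.1 CPM. The neurotrophin Bdnf stood at 52.8, 61.6 and 69.4 CPM against 79.2, 52.2 and 59.6 CPM, with an interval of -0.47 to 0.36. Dcx, a microtubule protein of newborn neurons, was the only one of 33 neurotrophin and neurogenesis genes at an unadjusted p under 0.05, at 89.1, 66.9 and 73.4 CPM against 61.5, 60.5 and 64.2 CPM (0.30 ± 0.13, or 0.18 without responder 1). Of the 30 genes of histone acetylation and DNA methylation, 0 reached that threshold, the median was 0.01 and all 30 intervals lay within 2-fold.

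Complement and antigen presentation was the pathway list with the lowest median. All 24 genes tested were at a lower level in responders, with a median of -0.65, and 3 had an unadjusted p under 0.05. C4b, a complement component that is cleaved on targets, stood at 0.858, 0.248 and 0.675 CPM in responders and 1.58, 5.80 and 10.7 CPM in non-responders. In responder 2 C4b lay below the detection floor. Serping1, the inhibitor of C1, stood at 4.90, 2.60 and 1.48 CPM against 2.77, 16.5 and 24.3 CPM, and the proteasome subunit Psmb9 at 3.19, 1.98 and 2.16 CPM against 3.17, 5.01 and 5.23 CPM. In all 3 genes non-responders 2 and 3 were the high libraries, as in the meningeal markers. The microglial gene C1qa stood at 31.1, 29.1 and 27.5 CPM against 23.8, 35.6 and 39.2 CPM. With the mean of the meningeal markers as a covariate the median of the list was 0.03. It was -1.05 with the choroid plexus markers as a covariate and -1.23 without responder 1 and non-responder 1. The meningeal markers themselves differed between the LAC groups, so that this covariate can take out a group difference of any source. The part of meningeal tissue in these values was not tested.

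In prostaglandin and immune signalling 25 of 30 genes had a negative difference (median -0.13), while 50.3% of all genes had a positive one. The median of the list was 0.06 with the meningeal covariate, -0.24 with the choroid plexus covariate and -0.26 without responder 1 and non-responder 1. The part of meningeal tissue was not tested here either. Beside Ptger3, an unadjusted p under 0.05 was found for the receptor Tgfbr2, at 24.9, 18.1 and 15.5 CPM against 31.0, 31.9 and 34.5 CPM, and for the adhesion molecule Icam1, at 3.43, 3.35 and 2.29 CPM against 4.35, 7.91 and 10.3 CPM. Among 41 immediate early genes, which mark recent neuronal activity, the only such gene was Atf3, at 1.23, 1.36 and 0.675 CPM against 2.24, 5.80 and 2.40 CPM. The list's median was 0.01. The 17 circadian clock genes and the 67 ribosomal protein genes had medians of -0.01 and 0.03, with 0 genes at that threshold in either.

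**Figure D4:**
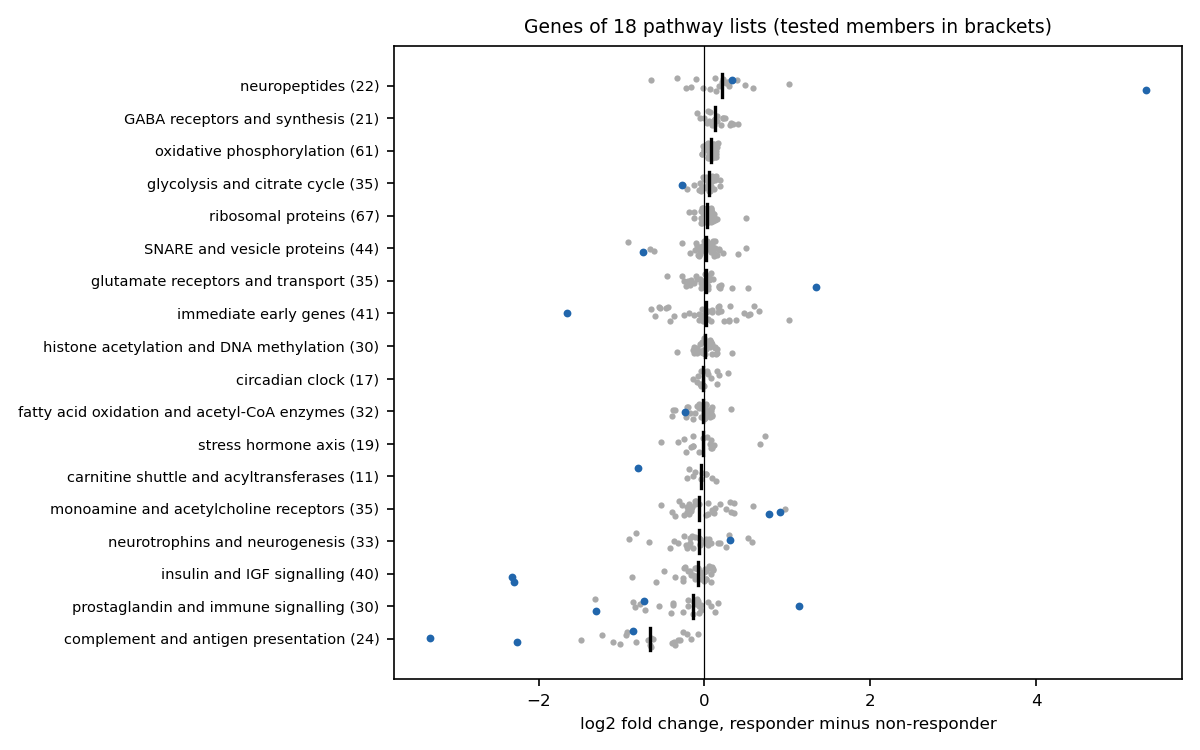
Log2 difference of responders minus non-responders for every tested member of the pathway lists, 1 point per gene and 1 row per list, with the list's median as a black bar and genes at an unadjusted p under 0.05 in blue. The respiratory chain subunits lie between -0.03 and 0.16, and the complement and antigen presentation genes all lie below 0 with a median of -0.65.

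Of 10 genes taken for their known link to stress, glutamate and carnitine, 9 overlapped between responders and non-responders; the exception was Cpt1a. All 10 had an interval within 2-fold and 6 within 1.5-fold. Over all genes 11.3% did not overlap, and 83.6% and 65.1% had intervals within these limits. The widest was that of Crh, which encodes corticotropin-releasing hormone and stood at 2.08, 1.73 and 0.945 CPM against 1.72, 1.32 and 1.55 CPM (interval -0.86 to 0.98).

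**Figure D5:**
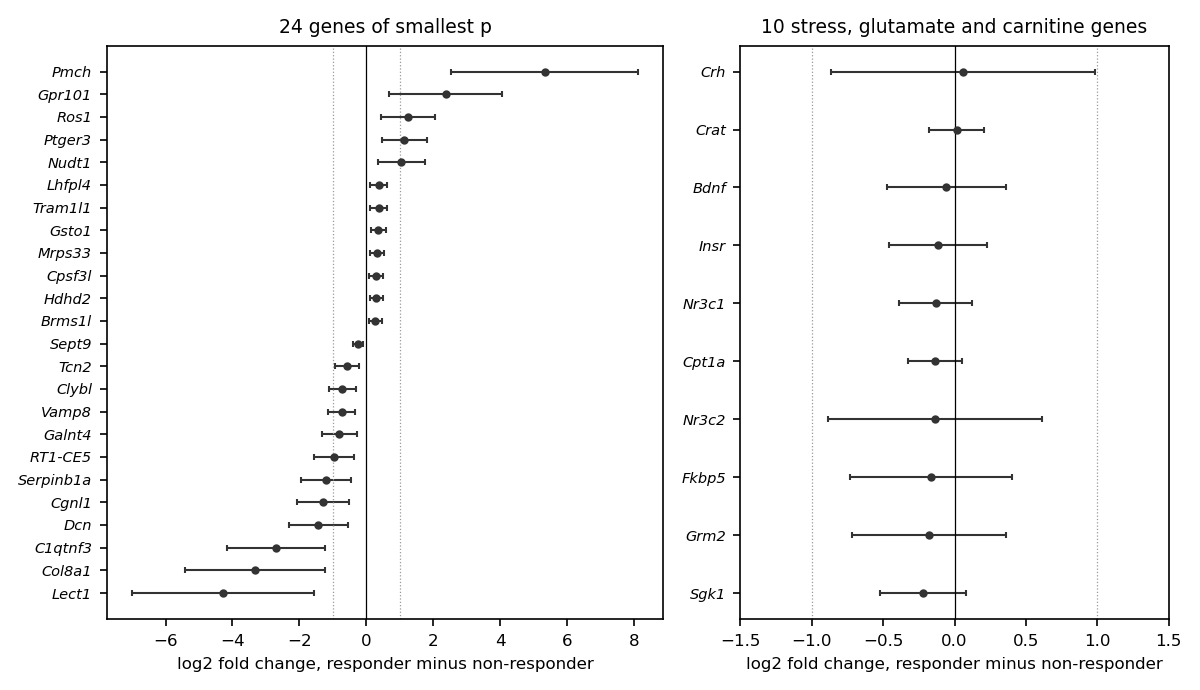
Log2 difference of responders minus non-responders with its 95% interval for named genes, 1 row per gene; the solid vertical line marks no difference and the dotted lines 2-fold in either direction. The 10 genes fixed for stress, glutamate and carnitine have intervals inside 2-fold, while Pmch (2.53 to 8.12) and Lect1 (-7.00 to -1.56) reach far beyond it.

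Each LAC group was also set against untreated FSL rats, and the 3 FSL vehicle libraries are shared by both comparisons. Responders against FSL vehicle gave 0 genes past the adjusted threshold in edgeR's quasi-likelihood test (0%) and 1619 at an unadjusted p under 0.05 (13.8%). Non-responders against FSL vehicle gave 0 (0%) and 495 (4.21%). The log2 difference of Clybl was -0.75 in the first and -0.03 in the second, that of Vamp8 -0.93 and -0.19, and that of Sgk1 0.46 and 0.68. Ptger3 went the other way round, at -0.12 for responders and -1.26 for non-responders. The difference between the 2 counts was not tested. Meningeal markers stood at 3.52, 5.70 and 7.30 log2 CPM in FSL vehicle, 3.58, 5.32 and 5.26 in non-responders and 4.29, 2.63 and 2.78 in responders. Choroid plexus markers stood at 6.06, 2.03 and 4.10, at 6.64, 1.91 and 2.65, and at 2.13, 1.27 and 1.63. The part of this tissue content in the 2 counts was not tested.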

How the data were processed

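The authors deposited whole-number read counts per gene symbol, 1 file per library, not normalized, with 17172 symbols and 5 summary lines, which were left out. Without stating roles, the submitters' processing notes list the build rn5, HTSeq 0.6.1, TopHat2 2.0.9, Trimmomatic 0.33, edgeR 3.12.0 and FastQC 0.11.3. Whether the counting used strand is not stated in them, so reads of a gene and of one overlapping it cannot be told apart. Overlaps were looked up in RefSeq's GRCr8 gene table.

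All 12 libraries were fitted in edgeR 4.0.16 (R 4.3.3) with TMM factors, the default expression filter on groups (11750 genes kept), 1 mean per group and a robust quasi-likelihood test, two-sided, with Benjamini-Hochberg adjustment at 0.05. CPM use TMM-scaled library sizes, and log2 CPM add a prior count of 2. SE is the absolute log2 fold change over the square root of F, and 95% intervals use its total degrees of freedom. Scripts were tested on simulated counts.

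Named genes were the 12 of smallest p in each direction with at least 1 CPM, 10 stress, glutamate and carnitine genes, up to 3 members of each of 36 lists, and Ttr, Prox1, Tcf7l2 and Slc17a6; other list members were chosen after their values were seen. Members and lists were chosen with earlier results of these data known. Alternatives were other scaling and filters, DESeq2 1.42.0, limma-voom (limma 3.58.1), fits of the 6 LAC libraries, a replicate block, libraries left out and marker covariates. The meningeal covariate, and the counts of intervals and of untreated-line signs, were added after seeing the data.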

Additional observations from a re-analysis of the deposited data

How the results depend on the processing

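The count of genes past an adjusted p of 0.05 was 0 under every alternative run, DESeq2 and limma-voom included; the smallest adjusted p was 0.0513, in the fit of the 6 LAC libraries with a replicate block. The count at an unadjusted p under 0.05 went from 369 (139 higher, 230 lower) to 612 (158 and 454) with the 6 LAC libraries only, to 645 (211 and 434) with these and the replicate block, and to 566 (310 and 256) with the meningeal covariate. Leaving out 1 library gave 269 to 456. The split turned to 238 higher and 136 lower without responder 3, and was 50 and 224 without responder 1.

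The labels name no pairing by replicate number. Deviations of same-numbered libraries from their group means correlated at -0.13, 0.080 and -0.032 across genes. Those of differently numbered libraries correlated at -0.22 to 0.18. With 3 libraries per group, 1 of which stands apart in each, these values cannot exclude a pairing. With the number as a block in the fit of 12 libraries the count was 358.

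Among named genes 1685 values kept their direction and side of the threshold and 35 turned sign. With 1 library left out the log2 difference ran from -0.48 to 0.13 for Nr3c2, -0.46 to 0.10 for Grm2, -0.18 to 0.12 for Bdnf, -0.022 to 0.032 for Crat, -0.18 to 0.31 for Crh, -0.33 to 0.033 for Fkbp5, -0.032 to 1.75 for Calb2, -0.53 to 2.05 for Foxp2, -0.60 to 2.76 for Tcf7l2, -0.032 to 1.44 for Tac1 and -0.83 to 0.25 for Prox1. Without responder 1 and non-responder 1 it was 0.23 for Nr3c2, 0.16 for Grm2, 0.23 for Bdnf, -0.090 for Crh, -0.035 for Slc17a6, -0.11 for Calb2, -0.75 for Foxp2, -0.84 for Tcf7l2, -0.16 for Tac1 and 0.23 for Prox1. With the choroid plexus covariate it was 0.054 for Nr3c2, 0.027 for Bdnf and 0.92 for Ttr. With the meningeal covariate it was -0.056 for Crat, 0.11 for Fkbp5, 0.093 for Aspa, 0.14 for Pdgfra, 0.063 for Tagln, 0.26 for Mrc1 and 0.41 for Ptprc. The cause was not tested.

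Intervals were wider at low levels, with a median half-width of 1.73-fold between 1 and 10 CPM against 1.17-fold at 100 CPM and above; the part of depth in this was not tested.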
